A study of Mus musculus with 5 samples.

Results

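Interferon signalling and response genes were followed in undifferentiated mouse embryonic stem cells that were wild type or Mkl2-/-. The set of 39 named genes, chosen with earlier results of these data known, covers receptors, kinases and STAT factors, interferon regulatory factors, sensors of viral RNA and antiviral effectors. Of these, 37 genes were measured, each by its brightest feature with a single gene symbol, among 19938 genes in all. Isg15 and Gbp2 were named only on features that carry several symbols and are not analysed here. The series has 2 wild-type arrays and 3 arrays of Mkl2-/- cells, all of strain C57BL/6 and all from separate cultures, and asks about TGF-beta signalling after loss of Mkl2. Mkl2 (now named Mrtfb) is a gene for a myocardin-related partner of serum response factor (SRF). All cultures grew with serum and leukaemia inhibitory factor on gelatin and embryonic fibroblast feeders, which were left behind on a dish before RNA was extracted. How the Mkl2 allele was made, and whether the cultures of a genotype come from 1 or several cell lines, is stated in no source used here, so p-values measure the spread between cultures only. Levels are the deposited log2 values, and differences are signed as Mkl2-/- minus wild type.

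Interferons are secreted proteins that signal through paired receptors, Janus kinases and STAT factors. The type I receptor (Ifnar1, Ifnar2) acts through STAT2 and IRF9, which bind at the interferon-stimulated response element, and signals of the interferon-gamma receptor (Ifngr1, Ifngr2) reach genes through the gamma-activated sequence. Pluripotent stem cells are known for a weak interferon response and for standing expression of some of the effector genes.

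The targeted gene, Mrtfb (Mkl2), read 9.80 and 9.75 on the wild-type arrays against 9.32, 9.32 and 9.09 on the Mkl2-/- arrays; no source used here says whether this feature covers the deletion, so it checks only the labels' direction. Correlations across all genes were at least 0.9985 within genotypes and at most 0.9938 between them. Of 10 embryonic stem cell markers, 10 lay above the background level of 7.30, which was the 95th percentile of the mean levels of 1027 olfactory receptor genes. Pou5f1 read 12.5 in the means of both genotypes. Of 10 leukocyte markers, 5 lay below background, among them Ptprc with values from 5.84 to 6.03. The other 5 lay above it, among them Cd68 with values from 9.87 to 9.99. Of all 19938 genes, 13564 lay above background.

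Of the 37 measured interferon genes, 13 were lower in Mkl2-/- cells and 2 were higher. The genes that fell included the guanylate-binding protein Gbp3, the deubiquitinase Usp18, the chemokine Cxcl10 and the transcription factors Irf1, Irf2 and Stat2. The genes that rose were the membrane protein Ifitm3 and the ubiquitin ligase Trim25. The receptors and the adaptor Mavs differed by -0.15 to -0.01 and did not pass the test. Differences were tested with limma over all 19938 genes, with a Benjamini-Hochberg adjusted p under 0.05 as the threshold.

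Lower calls made up 35.1% of the interferon genes, against a background of 6.28% of all genes, and higher calls 5.41%, against 2.99%. The median difference of the 37 genes was -0.35, and that of all genes 0.02. In 22 of the 37 genes every Mkl2-/- array read below both wild-type arrays, which was so for 16.7% of all genes. In 3 of the 37 every Mkl2-/- array read above both wild-type arrays, against 16.9% of all genes. Of the 13 genes that fell, 8 fell by at least 1.5-fold and 1 (Gbp3) by at least 2-fold, with arrays below the background level set to it. By the fitted differences 9 fell by at least 1.5-fold, against 408 of all 19938 genes. The lower calls were spread over 10 chromosomes. The 12 expressed genes on each side of each of these 13 had median differences between -0.11 (around Irf2) and 0.05 (around Stat2). Other interferon genes of the set were left out of these neighbours, but interferon pathway genes outside the set were not. Of these 24 neighbours, from 0 (around Stat2, Ddx58, Oasl2 and Ifi35) to 6 (around Irf2 and Rtp4) were themselves lower, against 8.78% of all genes above background. On chromosome 16, which holds the targeted Mrtfb, lie 7 of the 37 genes, among them Rtp4 and Parp14, which fell.

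**Figure D1:**
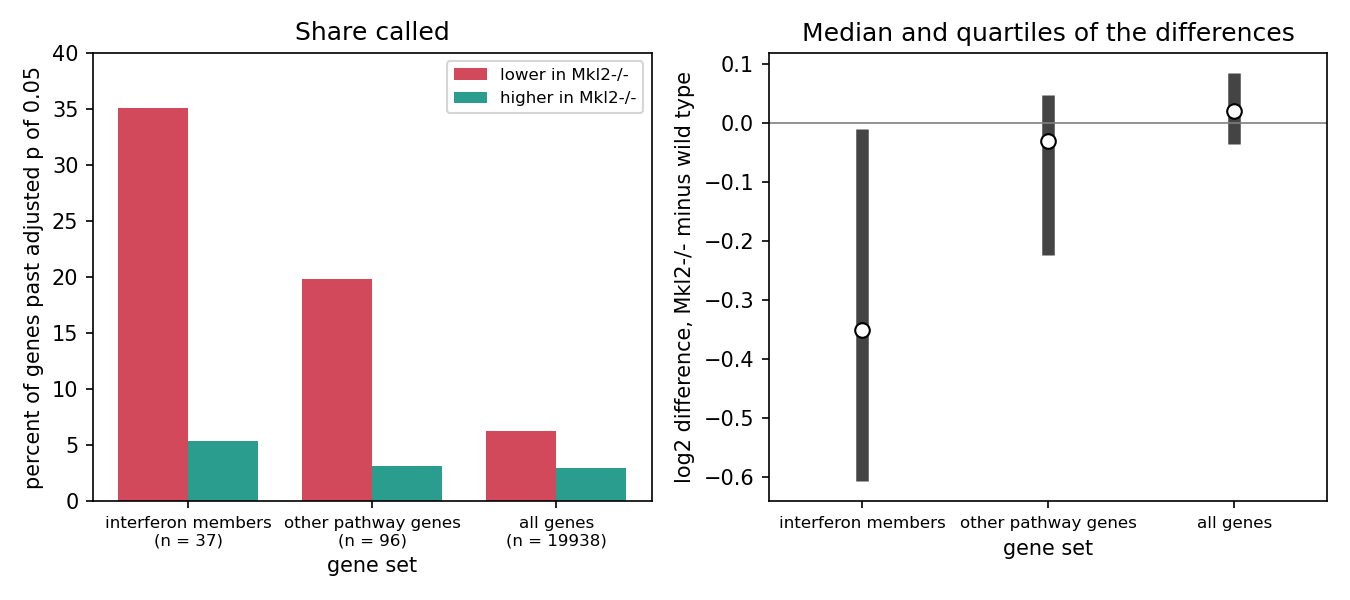
Left, percent of genes lower (red) or higher (green) in Mkl2-/- at an adjusted p of 0.05, for the 37 interferon genes, 96 other pathway genes and all 19938 genes. Right, median (circle) and quartiles (bar) of the log2 differences; the interferon genes have a median of -0.35 and an upper quartile of -0.01, while all genes centre on 0.02.

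The wild-type arrays of these genes differed too. In each of the 13 that fell, wild-type replicate 2 read above wild-type replicate 1, by a median of 0.15, while over all 1252 genes called lower this held for 788. No gene of the set passed the threshold without wild-type replicate 2 (limma; smallest adjusted p 0.058, with 18 of the 37 at an unadjusted p under 0.05), and neither did any of the 19938 genes. Without wild-type replicate 1 there were 4 lower and 1 higher calls in the set and 963 calls among all genes, against 1848 with all arrays. Without Mkl2-/- replicates 1, 2 and 3 there were 2, 2 and 3 lower calls and 1 higher call each, and 333, 403 and 448 calls among all genes. The 15 called genes kept their direction over these fits, which could not have reversed it because their arrays do not overlap between genotypes. Each fit also has fewer arrays.

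Interferon-inducible promoters carry short sites that the STAT and IRF factors bind, and these are shown because they are shared by genes that fell and by genes that did not. RefSeq promoter windows (build GRCm38.p6, 250 bases before to 50 after the start) were at hand for 31 of the 37 genes, and Dhx58, Usp18, Mx1, Mx2, Rtp4 and Parp14 had none. The core of the response element (GAAA, 2 bases of any kind, GAAA), searched on both strands, stood in 13 of the 31 windows (41.9%), against 3.99% of the 27025 genes in the table. It stood in 7 of the 10 windows of genes that fell, in 1 of 2 of those that rose (Ifitm3) and in 5 of the 19 others (26.3%). The gamma-activated sequence (TTC, 3 bases of any kind, GAA), which has the same form on both strands, stood in 9 of 31 (29.0%), against 9.55% of all genes. The CArG box of SRF stood in 1 of 31 (Irf3), or 3.23%, against 1.81% of all genes, and in 0 of the 10 windows of genes that fell. A match describes the letters only, and none was tested as a site in these cells.

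The stretches below lie upstream of the start, run 5′ to 3′ on the strand of the gene, and have each match in capitals. Gbp3 (chr3:142559969-142560043, plus strand) has overlapping copies of the response element core next to the start. Ifit1 (chr19:34640755-34640843, plus) and Ifit3 (chr19:34583343-34583446, plus) each have 2 copies, although only Ifit1 passed the test. Stat2 (chr10:128270248-128270315, plus) and Cxcl10 (chr5:92349063-92349132, minus) have 1 copy here. Irf2 (chr8:46739495-46739559, plus) has the core and then a gamma-activated sequence, Irf1 (chr11:53769894-53769962, plus) a gamma-activated sequence alone. Bst2 (chr8:71537557-71537638, minus), which did not pass the test, has 2 overlapping copies of the core, the first of which also overlaps a gamma-activated sequence.
Gbp3: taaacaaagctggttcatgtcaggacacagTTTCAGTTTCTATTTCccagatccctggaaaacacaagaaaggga
Ifit1: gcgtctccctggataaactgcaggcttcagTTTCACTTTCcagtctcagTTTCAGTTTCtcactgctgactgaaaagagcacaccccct
Ifit3: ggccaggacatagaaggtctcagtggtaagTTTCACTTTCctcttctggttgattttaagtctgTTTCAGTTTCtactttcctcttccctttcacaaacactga
Stat2: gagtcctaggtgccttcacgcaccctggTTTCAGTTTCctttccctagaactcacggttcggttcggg
Cxcl10: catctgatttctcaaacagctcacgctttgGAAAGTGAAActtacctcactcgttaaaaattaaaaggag
Irf2: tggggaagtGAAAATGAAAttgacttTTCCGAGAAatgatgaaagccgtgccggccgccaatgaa
Irf1: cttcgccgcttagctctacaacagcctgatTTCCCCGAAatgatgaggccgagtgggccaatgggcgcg
Bst2: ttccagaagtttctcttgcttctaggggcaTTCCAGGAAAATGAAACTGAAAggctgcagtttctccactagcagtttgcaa

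The 4 receptor genes stood well above background on every array and none passed the test. Ifnar1 and Ifnar2, the chains of the type I receptor, differed by -0.03 ± 0.02 and -0.14 ± 0.06 (SE, n = 2 and 3). Ifngr1 and Ifngr2, the chains of the interferon-gamma receptor, differed by -0.15 ± 0.09 and -0.10 ± 0.06. In Ifnar2 and Ifngr2 the arrays of the genotypes did not overlap, but the gaps were within the spread that the test allows (limma adjusted p = 0.287 and 0.393). Downstream of the receptors, Stat2, a transcription factor of the type I response, read 8.86 and 8.98 in wild type against 8.51, 8.42 and 8.46 in Mkl2-/-. Its arrays did not overlap, and it fell 1.37-fold (-0.46 ± 0.05, limma adjusted p = 0.021). Jak2, a kinase of the interferon-gamma receptor, read 8.66 and 8.82 against 8.39, 8.39 and 8.14, a difference of -0.43 ± 0.11 without overlap that did not pass (adjusted p = 0.109). Tyk2, a kinase of the type I receptor, read 8.60 and 8.57 against 8.81, 8.95 and 8.74, the opposite direction, and did not pass either (0.25 ± 0.07, adjusted p = 0.143).

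Among the interferon regulatory factors 2 of 5 fell, against 6.28% of all genes. Irf1, an activator that both interferon types induce, read 10.08 and 10.15 in wild type against 9.30, 9.30 and 9.24 in Mkl2-/-. Its Mkl2-/- arrays lay within 0.06 of each other, and it fell 1.78-fold (-0.835 ± 0.03, limma adjusted p = 0.0062), and it still passed in 4 of the 5 fits that leave out an array. A second, dimmer Irf1 feature read 7.75 on all 5 arrays and so gave no difference. Irf2, an antagonist of IRF1 at many promoters, read 7.83 and 8.03 against 7.18, 7.39 and 7.25. It fell at least 1.52-fold (-0.66 ± 0.10, adjusted p = 0.037), and this is a bound because 2 of its Mkl2-/- arrays lay below background and were set to 7.30. Irf9, the DNA-binding partner of STAT2, read 8.65 and 8.64 against 8.38, 8.38 and 8.12, without overlap but not past the test (-0.35 ± 0.10, adjusted p = 0.138). It passed without Mkl2-/- replicate 3, which reads lowest for this gene (adjusted p = 0.036). Irf3, the factor that RNA sensing activates, differed by -0.01 ± 0.02, and Irf7, its inducible relative, lay below background on all 5 arrays (0.06 ± 0.05).

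One of the 3 RNA helicase genes of the sensor group fell, against 6.28% of all genes. Ddx58 encodes RIG-I, a sensor of viral RNA, and read 9.99 and 10.14 in wild type against 9.63, 9.54 and 9.53 in Mkl2-/-. Its arrays did not overlap, and it fell 1.41-fold (-0.50 ± 0.06, limma adjusted p = 0.026). Ifih1, which encodes the sensor MDA5, lay above background on a single array, wild-type replicate 2, at 7.49 (-0.61 ± 0.20, adjusted p = 0.183). Dhx58, the relative that modulates both sensors, was below background on all 5 arrays (0.03 ± 0.02). Mavs, the mitochondrial adaptor of these sensors, differed by -0.01 ± 0.01.

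**Figure D2:**
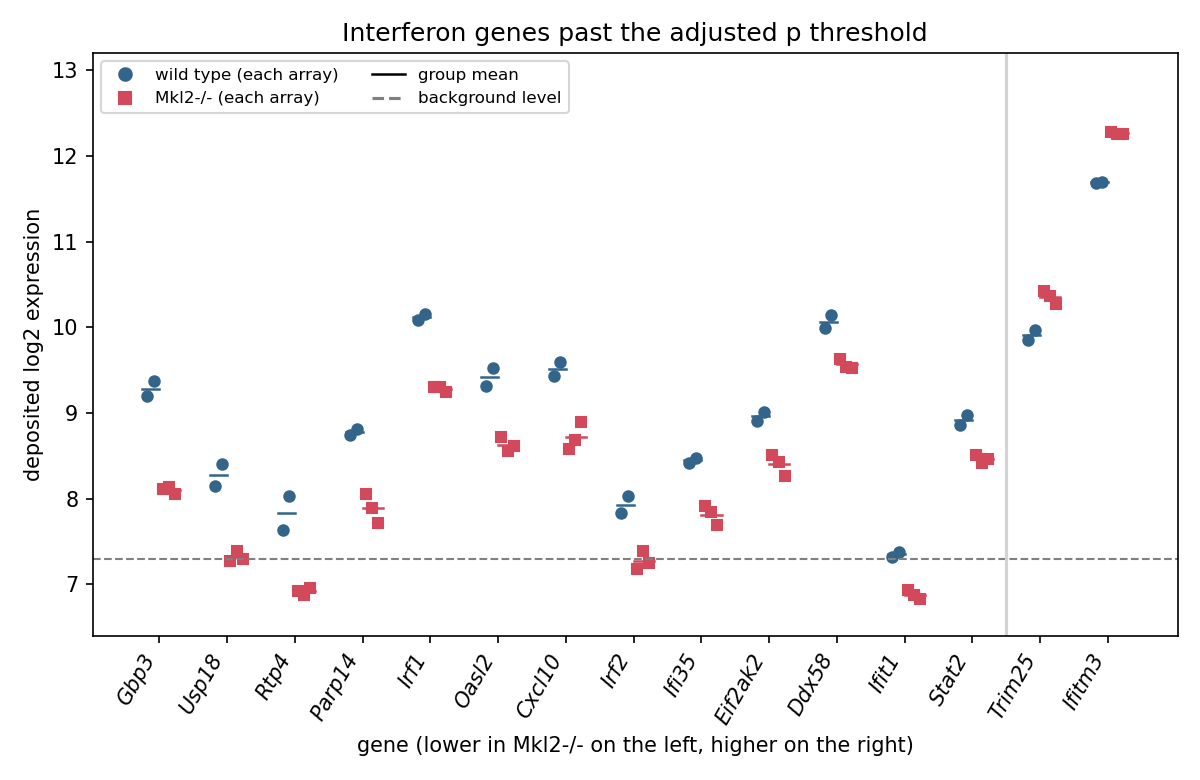
Deposited log2 expression on each array for the 13 interferon genes lower and the 2 higher in Mkl2-/- (blue circles wild type, red squares Mkl2-/-, short lines group means, dashed line background at 7.30). In each gene the arrays of the genotypes do not overlap; Rtp4 and Ifit1 lie below background on all 3 Mkl2-/- arrays.

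The largest fall was in Gbp3, a guanylate-binding GTPase of cell-autonomous defence. It read 9.20 and 9.37 in wild type against 8.11, 8.14 and 8.06 in Mkl2-/-. The Mkl2-/- arrays lay within 0.08 of each other and more than a full log2 unit below wild type, a 2.27-fold fall (-1.18 ± 0.06, limma adjusted p = 0.0079) that passed in 3 of the 5 fits with an array left out. Mx2, an antiviral dynamin-like GTPase, and its relative Mx1 lay below background on all 5 arrays and did not pass, with differences of -0.45 ± 0.13 and 0.01 ± 0.02. Usp18, which removes ISG15 from proteins and dampens type I signalling, read 8.15 and 8.40 against 7.27, 7.39 and 7.30. It fell at least 1.93-fold (-0.955 ± 0.09, adjusted p = 0.017), from clearly above background to its edge.

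In the IFIT and OAS-like families Ifit1 and Oasl2 passed the test as lower, against 6.28% of all genes. All 3 IFIT genes had lower means in Mkl2-/-, as did 36.2% of all genes, but Ifit2 overlapped between genotypes. Ifit1, which binds foreign RNA ends, read 7.32 and 7.38 in wild type against 6.93, 6.88 and 6.83 in Mkl2-/-, close to the background level in both genotypes. It passed the test (-0.47 ± 0.04, limma adjusted p = 0.013), but its fold is only bounded, at least 1.04. Its neighbours Ifit2 (-0.16 ± 0.09) and Ifit3 (-0.23 ± 0.12) were below background on all 5 arrays and did not pass. Oasl2, a relative of the oligoadenylate synthetases, read 9.31 and 9.53 against 8.72, 8.56 and 8.61 and fell 1.73-fold (-0.79 ± 0.09, adjusted p = 0.023). Oasl1, its neighbour on chromosome 5, overlapped between genotypes (-0.01 ± 0.06, adjusted p = 0.923).

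Other effectors fell in 5 of 8 cases and rose in 1, against 6.28% and 2.99% of all genes. Rtp4, a receptor transporter protein induced by interferon, read 7.63 and 8.03 in wild type against 6.92, 6.88 and 6.96 in Mkl2-/-. Its Mkl2-/- arrays were tight and below background, while the wild-type arrays were 0.40 apart, and it fell at least 1.44-fold (-0.91 ± 0.13, limma adjusted p = 0.037). Parp14, an ADP-ribosyltransferase, read 8.74 and 8.81 against 8.05, 7.89 and 7.72 and fell 1.85-fold (-0.89 ± 0.11, adjusted p = 0.027). Cxcl10, a T cell attracting chemokine, read 9.43 and 9.59 against 8.58, 8.68 and 8.90. Its highest Mkl2-/- array still lay 0.53 below the lower wild-type array, and it fell 1.73-fold (-0.79 ± 0.12, adjusted p = 0.040). Ifi35, an interferon-induced leucine zipper protein, read 8.42 and 8.48 against 7.91, 7.84 and 7.69 and fell 1.55-fold (-0.64 ± 0.08, adjusted p = 0.025). Eif2ak2, which encodes the kinase PKR that halts translation on double-stranded RNA, read 8.91 and 9.01 against 8.51, 8.43 and 8.27. The groups stayed apart, and it fell 1.47-fold (-0.56 ± 0.09, adjusted p = 0.042). Xaf1, a pro-apoptotic interferon target, read 8.26 and 8.42 against 7.86, 7.83 and 7.61 and narrowly missed the threshold (-0.57 ± 0.10, adjusted p = 0.057). Rsad2, which encodes the antiviral enzyme viperin, was below background on all 5 arrays (0.005 ± 0.03).

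Trim25, the ubiquitin ligase that activates RIG-I, moved the other way from Ddx58. It read 9.85 and 9.97 in wild type against 10.42, 10.36 and 10.27 in Mkl2-/-, without overlap, and rose 1.36-fold (0.44 ± 0.06, limma adjusted p = 0.036).

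The interferon-induced transmembrane genes of chromosome 7 also went different ways. Their proteins block the entry of enveloped viruses, and they were among the genes of the set far above background. Ifitm3 read 11.68 and 11.70 in wild type against 12.28, 12.26 and 12.26 in Mkl2-/-. Its arrays lay within 0.02 of each other in both genotypes, and it rose 1.49-fold (0.58 ± 0.01, limma adjusted p = 0.0041), a call kept in 4 of the 5 fits with an array left out. Ifitm1 read 11.51 and 11.52 against 11.02, 11.22 and 11.20 and did not pass (-0.37 ± 0.07, adjusted p = 0.067). Its second feature also read lower on all 3 Mkl2-/- arrays, by -0.58 ± 0.11 (adjusted p = 0.069 over all features). Without Mkl2-/- replicate 1, which reads lowest for Ifitm1, the brighter feature passed as lower (adjusted p = 0.042). Ifitm2 stayed at 12.83 or 12.84 on every array, and its other features differed by 0.00 and -0.025. These genes are close relatives in sequence, and how far their features read each other's transcripts was not tested. Bst2, which encodes tetherin, an anchor of budding virus, overlapped between genotypes (-0.02 ± 0.01, adjusted p = 0.442).

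**Figure D3:**
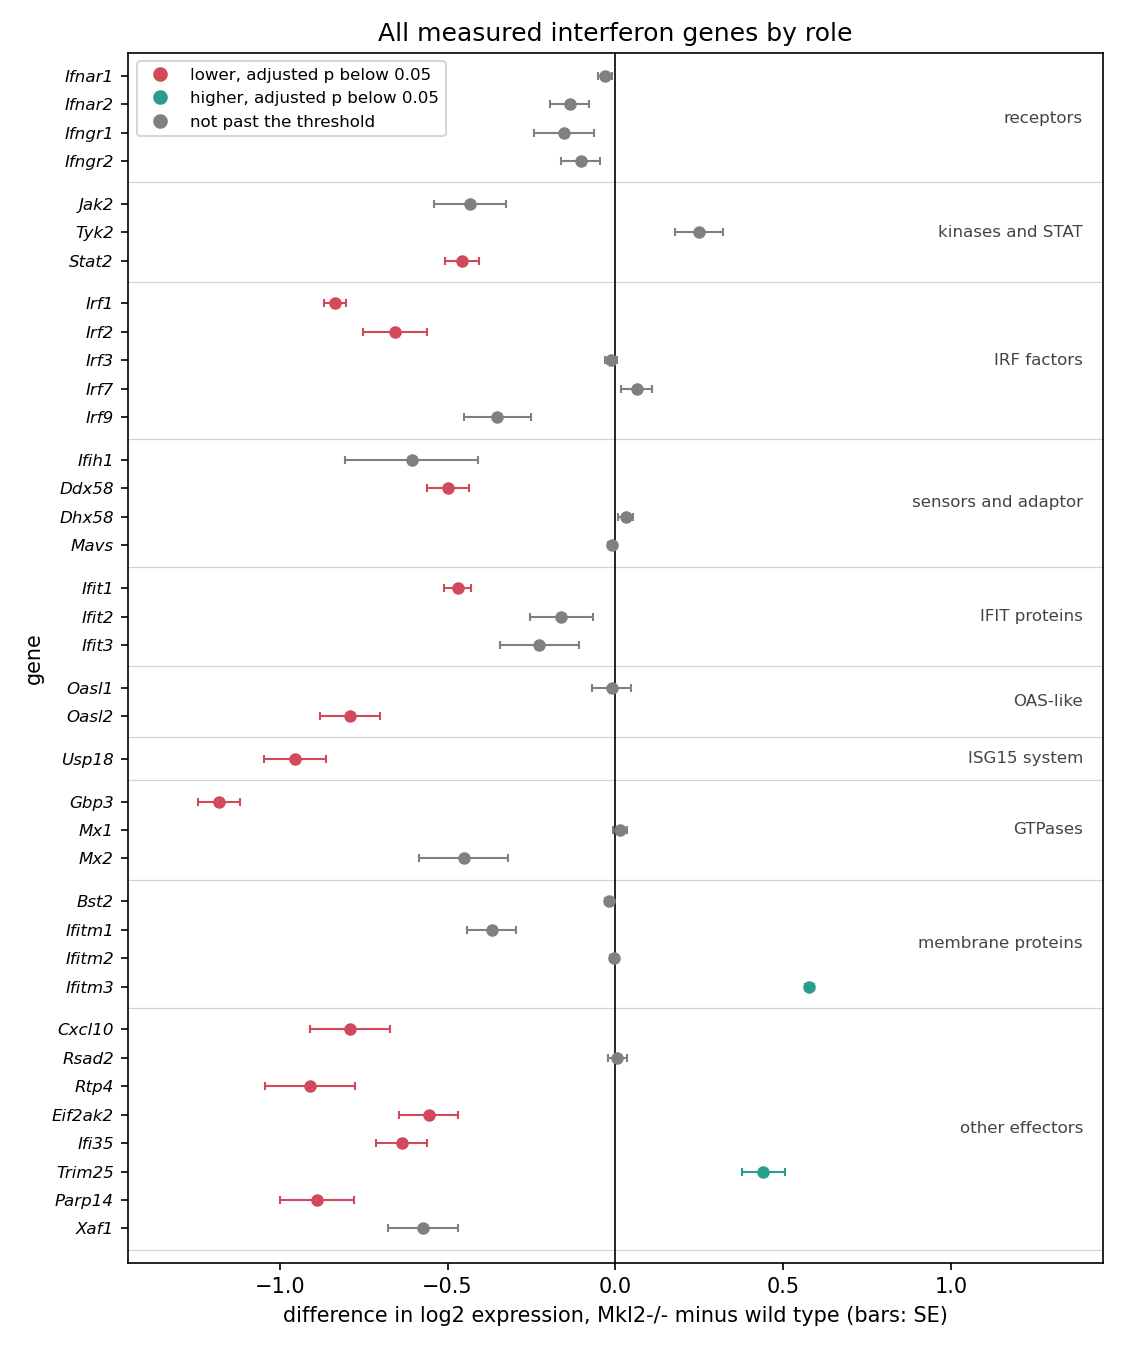
Difference in log2 expression, Mkl2-/- minus wild type, with its SE, for all 37 measured interferon genes grouped by role (red lower, green higher, grey not past an adjusted p of 0.05). The receptors sit close to 0, Gbp3 is lowest at -1.18, and Ifitm3 is highest at 0.58.

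Of the 22 genes that did not pass, 9 read lower and 1 higher on every Mkl2-/- array than on both wild-type arrays. Over all genes, called or not, this was so for 16.7% and 16.9%, and the shares among uncalled genes alone are not given here. Of the 22, 12 overlapped between genotypes, and 10 differed by no more than 0.1 in either direction. Below background on all 5 arrays were 7 of the 22, where RMA values compress any difference. A difference that misses the threshold with 2 and 3 arrays does not show that levels were equal.

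A further list of 114 interferon pathway genes outside the set gave 96 measured genes, of which 19 fell and 3 rose (19.8% and 3.12%, against 6.28% and 2.99% of all genes). Their median difference was -0.03. None of 16 interferon ligand genes passed, and 12 of these lay below background in their mean. Among the effectors of the list 16 of 49 fell and 2 rose. By smallest p, the falls were led by Parp12 (-0.55 ± 0.02, limma adjusted p = 0.0062), an ADP-ribosyltransferase, and Zc3hav1 (-1.245 ± 0.07, adjusted p = 0.0084), which encodes the zinc finger antiviral protein ZAP. Next came Iigp1 (an immunity-related GTPase), Trim30a (at least 1.07-fold lower) and the RNA sensor gene Tlr3, of which Iigp1 and Tlr3 were below background in both genotypes. Higher were Pml (0.605 ± 0.03, adjusted p = 0.0079), a nuclear body scaffold, Apobec3 (0.435 ± 0.06, adjusted p = 0.030), a cytidine deaminase, and Rnf125 (0.32 ± 0.05, adjusted p = 0.035), a ubiquitin ligase that targets RIG-I. Jak1, the kinase shared by both receptors, did not pass (-0.06 ± 0.03, adjusted p = 0.332).

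Relatives of the falling genes were looked at after their values were seen, and some fell while others did not pass. Cxcl11, a chemokine of the same receptor as Cxcl10, read 9.48 and 9.95 in wild type against 8.35, 8.26 and 8.34 in Mkl2-/- (2.64-fold lower, limma adjusted p = 0.022). Gbp7, a relative of Gbp3 on chromosome 3, read 9.16 and 9.46 against 8.12, 8.20 and 8.23 (2.18-fold lower, adjusted p = 0.016). Parp9 and Dtx3l, which work as a complex and lie with Parp14 on chromosome 16, fell 1.67-fold and 1.27-fold (adjusted p = 0.022 and 0.041). In each of these 4, picked with their values known, every Mkl2-/- array read below both wild-type arrays, which was so for 16.7% of all genes. Cxcl9, a further ligand of the receptor of Cxcl10, differed by 0.11 ± 0.07 and Gbp4 by -0.44 ± 0.13. Gbp5 differed by 0.06 ± 0.07 (below background) and Parp10 by -0.20 ± 0.03. In that order, none of these passed (limma adjusted p = 0.403, 0.147, 0.598 and 0.052). Oas1a, Oas1b, Oas1c, Oas2 and Oas3, relatives of Oasl2, did not pass. Neither did Irf4, Irf5 and Irf8, relatives of Irf1 and Irf2.

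Markers of other cell types were measured beside the interferon genes. In bulk RNA, fewer cells of a type and less RNA per cell cannot be told apart. Of 23 fibroblast markers, followed because feeders can be carried over, 3 fell (Fstl1, Mmp2 and Pdgfrb) and 1 rose (Twist1), against 6.28% and 2.99% of all genes, and 20 lay above background. Their median difference was -0.05. Their summed linear signal was 8645 to 8765 in wild type and 7290 to 7448 in Mkl2-/-, and without Fstl1, which fell by 0.88 on the log2 scale, 6639 to 6787 against 6130 to 6377. Col1a1 read 9.42 and 9.24 against 9.06, 8.99 and 9.07 without passing (limma adjusted p = 0.090), and Lum, Postn and Fap were below background. Of 10 primitive endoderm markers 5 rose and none fell, against 2.99% and 6.28% of all genes, with a summed signal of 3547 to 3591 in wild type and 5199 to 5929 in Mkl2-/-. Gata6, one of them, rose by 0.935 ± 0.10 (limma adjusted p = 0.020). Cubn, below background in wild type, rose at least 4.02-fold, and Lama1 rose 2.74-fold (limma adjusted p = 0.0079 for each). Of 10 stem cell markers 4 rose and none fell, against the same shares of all genes, with sums of 37300 to 38494 against 43488 to 44044. Leukocyte marker sums overlapped, at 2683 to 2718 and 2624 to 2728. A limma fit with the fibroblast marker mean as a covariate leaves 2 residual degrees of freedom. In it the 15 called interferon genes kept their direction and none passed, nor did any gene of the whole table. The smallest limma adjusted p in the set was 0.278, with 7 of the 37 at an unadjusted p under 0.05. This covariate did not overlap between genotypes either (8.04 and 8.02 in wild type against 7.96, 7.91 and 7.95 in Mkl2-/-). The fit therefore cannot tell its part from that of genotype. The part of stem cell and endoderm markers in the result was not tested.

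**Figure D4:**
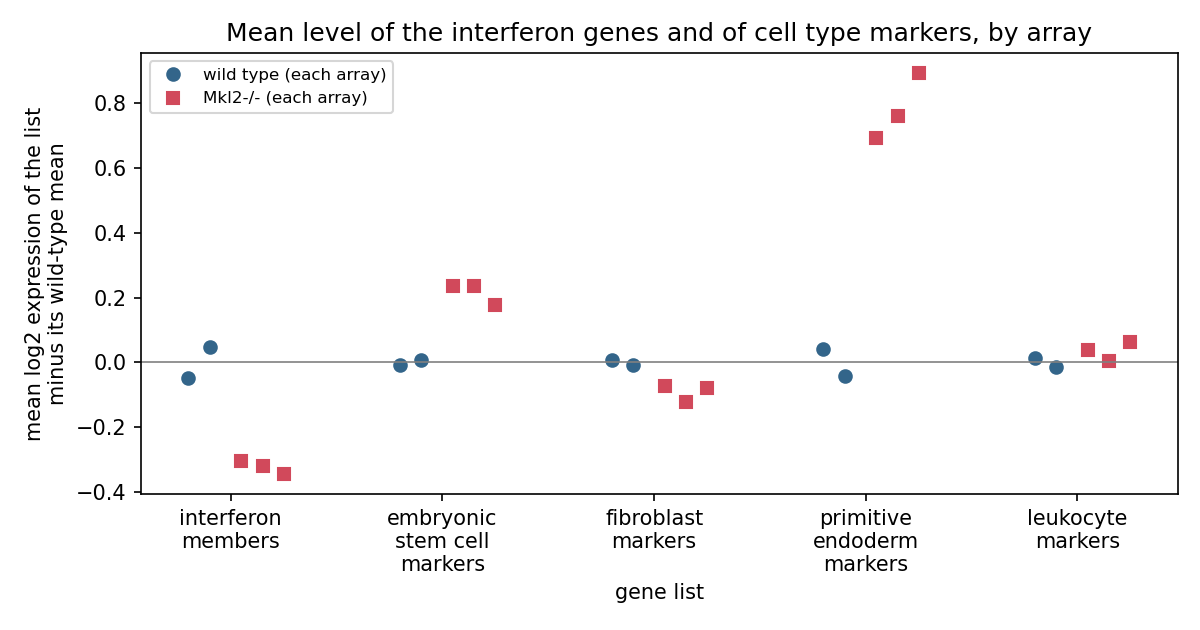
Mean log2 expression of each gene list on each array, minus the mean of its wild-type arrays (blue circles wild type, red squares Mkl2-/-). The interferon genes read -0.30 to -0.34 on the Mkl2-/- arrays, the fibroblast markers -0.07 to -0.12, and the primitive endoderm markers 0.69 to 0.89.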

How the data were processed

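Total RNA was amplified, turned into labelled cDNA and hybridised to Affymetrix whole-transcript arrays. The authors deposited log2 intensities; per the submitters' processing notes these come from RMA as run in Affymetrix Expression Console 1.1. RMA quantile-normalizes arrays, and compresses differences of dim features. Of 35556 features, 21789 had 1 symbol in the platform annotation, 1621 several and 12146 none. The brightest feature of each gene by its mean over all 5 arrays was kept, which gave 19938 genes, 13564 above background.

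Each gene was fitted on genotype in limma 3.58.1 under R 4.3.3 with lmFit and then eBayes (default prior, 3 residual and 0.885 prior degrees of freedom), two-sided, with Benjamini-Hochberg adjustment over all genes. All arrays equalled their group mean in 776 genes. Where the lower group had arrays below background, those were set to 7.30 and the fold is a bound. The fit was tested on simulated data. Every measured member is named or counted; of the other pathway genes, up to 5 in each direction by smallest p, and Jak1; one item of the naming rule is not reported here. The members and lists were chosen with earlier results of these data known. Alternatives were cyclic loess, quantile normalization, a filter on dim genes, a trended robust prior, array weights, mean or all features, a 1.5-fold minimum, a replicate block, a fibroblast covariate, each array left out and, added after the data were seen, a fit without genes that have no spread. Figures were drawn with matplotlib 3.10.9 in Python 3.11.15.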

Additional observations from a re-analysis of the deposited data

How the results depend on the processing

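Lower and higher calls among the interferon genes numbered 13 and 2, among the other pathway genes 19 and 3, and among all genes 1252 and 596. For the interferon genes, 12 to 18 lower and 2 or 3 higher calls were made under cyclic loess, quantile normalization, the filter on dim genes, trend and robust, array weights, mean or all features, and without genes that have no spread. With a fitted difference of at least 1.5-fold there were 9 lower and 0 higher calls among them (8 lower where arrays below background are set to it, which bounds Rtp4 at 1.44-fold), 10 and 1 among the other pathway genes, and 408 and 96 among all genes. With the replicate number as a block on the 4 arrays numbered 1 and 2 there were 0 calls of either kind in each set (smallest adjusted p 0.161 over all genes, with 3827 genes at an unadjusted p under 0.05, 19 of them interferon genes; 1 residual degree of freedom). Same-numbered arrays deviated together with a correlation of -0.20 for number 1 and 0.19 for number 2. The 2 wild-type arrays deviate from their mean as mirror images, so these values are not separate checks and cannot show or exclude a pairing. With the fibroblast covariate there were also 0 calls in each set, with 2306 genes at an unadjusted p under 0.05. That covariate itself did not overlap between genotypes. Leaving out single arrays gave 0 to 4 lower and 0 to 1 higher calls among the interferon genes, 0 to 11 and 0 to 1 among the other pathway genes, and 0 to 490 and 0 to 473 among all genes, with 0 throughout without wild-type replicate 2 (4411 genes at an unadjusted p under 0.05). Cyclic loess gave 30 lower other pathway genes, and 1977 lower and 1005 higher genes in all. Quantile normalization gave 5 higher other pathway genes and 1751 lower and 1483 higher genes in all, a more even split than in the deposited values. Without genes that have no spread, 5 other pathway genes and 916 of all genes were higher. The 15 called interferon genes kept their direction in every alternative that tested them, and the filter on dim genes left out Rtp4 and Ifit1. Most of these fits could not have reversed it. Arrays of these genes do not overlap between genotypes, which fixes the direction under left-out arrays, the replicate block and array weights. The filter, the trended robust prior, the 1.5-fold minimum and the fit without genes that have no spread use the same differences. The number of arrays and the background level limit what dim genes such as Ifih1 and the Mx and Ifit genes can show.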
